A study of Mus musculus with 2 samples.

Results

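The genes described here are 44 components of the Wnt and Notch signalling pathways, 24 assigned to Wnt and 20 to Notch, out of 18193 genes that the arrays measured with a probe set of their own. They were chosen as a list of pathway genes, and every probe set that the platform annotation assigned to exactly 1 of them was taken, 104 in all. No probe set had to be left out for being annotated to a member together with another gene. Signals came from 2 Affymetrix arrays hybridised with total RNA of sorted mouse bone marrow cells. The first array was from wild type mice and the second from mice with a conditional inactivation of TIF1γ (Trim33), a transcriptional regulator of the TRIM family, labelled TIF1γ Δ/Δ. KLS cells were sorted in both cases, the fraction that is negative for lineage markers and positive for c-kit and Sca, which holds the haematopoietic stem cells and early progenitors. The promoter that drives the recombinase, the age of the mice and the number of mice behind each RNA sample were not stated in the labels. With 1 array for each genotype there was no replicate, and no difference below could be tested.

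Wnt proteins are lipid-modified ligands that bind Frizzled receptors and Lrp co-receptors. In cells without the ligand, a destruction complex of Axin, Apc, casein kinase 1 and Gsk3 marks beta-catenin for degradation, and ligand binding, through Dishevelled, stops this, so that beta-catenin enters the nucleus and joins TCF factors. Notch receptors are activated by Delta and Jagged ligands on neighbouring cells, are cut by an ADAM protease and then by gamma-secretase, and release an intracellular domain that binds Rbpj and Mastermind to switch on genes such as Hes1. In blood cell development, Notch signalling is best known for directing progenitors to the T cell lineage, and both pathways have been studied as regulators of stem cell maintenance.

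A probe set counted as measured when its MAS5 signal, a background-corrected brightness on a linear scale, reached the median of all non-control probe sets of its array. This floor was 14.4 for wild type and 11.7 for TIF1γ Δ/Δ. Each gene was represented by its probe set of highest mean log2 signal. By this measure 34 of the 44 genes were measured on both arrays, 1 on the wild type array alone, 2 on the TIF1γ Δ/Δ array alone and 7 on neither. The 37 measured on at least 1 array made up 84.1% of the list, against 64.4% of all 18193 genes. The list was chosen with earlier results of these data known. Of 140 further genes of the 2 pathways, described below, 64.3% were measured on at least 1 array. The 7 under the floor on both arrays were the Wnt acyltransferase Porcn, the co-receptor Lrp5, the Dishevelled protein Dvl3, the ligands Dll4 and Jag1, the receptor Notch4 and the Notch target Hey1. A signal under the floor does not show that a gene is silent, since a weak probe set gives the same reading.

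Differences are log2 of the TIF1γ Δ/Δ signal minus log2 of the wild type signal, less the median difference (-0.024) over all probe sets above the floor on both arrays. Of the 37 genes with a value, 2 were at least 2-fold higher on the TIF1γ Δ/Δ array, namely the protease Adam17 and the kinase Gsk3b, and 0 were at least 2-fold lower. Among all 11724 genes with a value, the share at least 2-fold higher was 2.53% and the share at least 2-fold lower was 6.01%. At a smaller size of 1.5-fold, 5 members were higher and 4 lower, where the shares of all genes past that size were 13.5% higher and 15.3% lower. The 5 were Adam17, Gsk3b, Maml1, Notch1 and Tle3, and the 4 were Fzd1, Hes1, Lfng and Tcf7l1. The median difference was 0.13 over the 21 Wnt members with a value and 0.0047 over the 16 Notch members, beside 0.00023 over all genes with a value. The remaining members measured on both arrays were less than 1.5-fold apart.

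Marker levels of other cell types differed between the 2 samples. The targeted gene Trim33 gave 379 and 172 (log2 -1.12, and -0.80 at a second probe set). Kit, the gene of c-kit, was higher at 2 of 2 probe sets (log2 0.39 and 1.14). Ly6a, the gene of Sca, had no probe set of its own. Cd34, Flt3, Cd48 and Slamf1, also listed as markers of the sorted cells, were measured on both arrays, with differences between 0.16 and 0.76. Of 15 neutrophil and macrophage markers, 14 were measured in wild type and 6 in TIF1γ Δ/Δ, and their summed signal was 38183 and 715. Erythroid markers summed to 4129 and 1083 (9 and 6 of 10 measured), B lineage markers to 687 and 211 (5 and 2 of 9), T and NK cell markers to 1624 and 1261 (8 and 3 of 10), endothelial and stromal markers to 624 and 793 (7 and 8 of 15), and megakaryocyte and platelet markers to 1781 and 2877 (8 of 8 on both). Most of the T and NK cell sum was Nkg7 (1249 and 1090), and 8 of 8 markers of that list with a value were lower. Of the endothelial and stromal markers with a value, 5 were higher and 3 lower, with Pdgfrb at 118 and 279 and Cxcl12 at 73.8 and 32.4. Itgam, Hba-a1, Cd3e, Cd4, Cd79a, Pax5 and Ebf1 were under the floor on both arrays. The part of these other cells in the differences of the pathway genes was not tested, and in RNA of a mixed sample fewer cells of a type cannot be told apart from less RNA per cell.

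**Figure D1:**
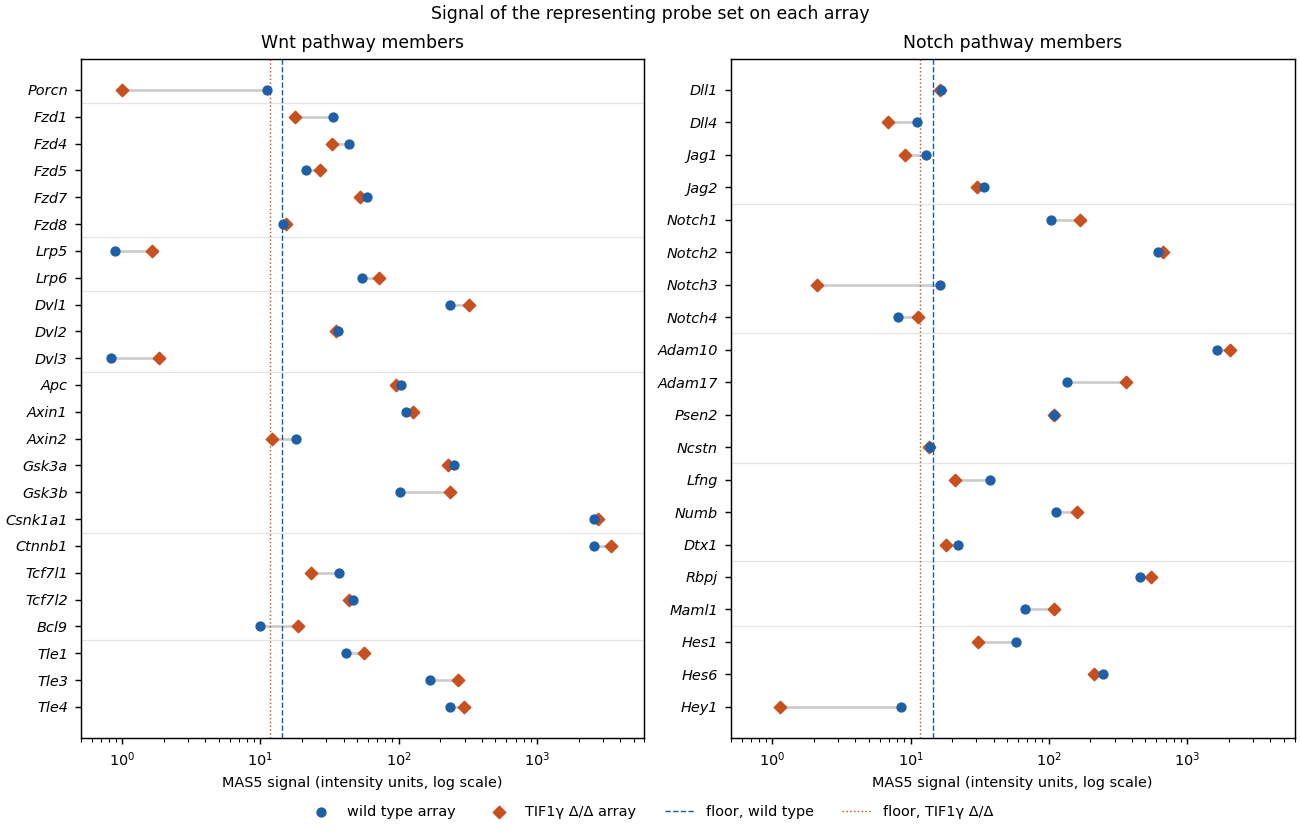
MAS5 signal of each gene's representing probe set on the wild type array (blue circles) and the TIF1γ Δ/Δ array (orange diamonds), on a log scale, with Wnt members on the left and Notch members on the right, ordered by pathway step with thin lines between steps. Dashed and dotted lines mark the floors of 14.4 and 11.7, and most pairs of points lie close together, with the widest gaps above both floors at Gsk3b and Adam17.

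The only measure of error that 2 arrays give is how far probe sets of the same gene scatter. Over 4534 genes with 2 or more probe sets measured on both arrays its SD was 0.452 on the log2 scale, which describes how far probe sets disagree and not how far mice differ. Among the members, 17 had 2 or more such probe sets, and in 10 of the 17 all pointed in 1 direction. That share, 58.8%, lay beside 55.8% for all genes. Another 17 members rested on a single probe set measured on both arrays.

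Promoter sequences are shown for the members furthest apart and for a pair of Notch-related genes, so that the regulatory sequence next to these measurements can be read. They come from RefSeq (GRCm38.p6), 250 bases before to 50 bases after an annotated start, and 35 of the 44 members had at least 1 such window, 44 windows in all. A set of 3 short motifs was searched on both strands: the Rbpj core TGGGAA, the TCF core (CTTTG followed by AA, AT, TA or TT) and the N box CACNAG, a site that Hes-type repressors can bind. The Rbpj core was present in 7 of the 44 member windows (15.9%) and in 25.6% of all 32851 windows. The TCF core was present in 4 member windows (9.09%) and in 16.9% of all, and the N box in 16 (36.4%) and in 42.5% of all. Member genes with the Rbpj core were Dvl1, Gsk3a, Lfng, Psen2, Rbpj itself and Tcf7l1. The 9 members without a window, Hes1 and Hey1 among them, were not searched, so their absence from this list says nothing about their promoters. A match describes the letters in the window and is not a binding site.

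In the 4 windows below, each written 5′ to 3′ on the gene's strand, motif matches are in capitals. Adam17 (chr12:21373583-21373882, minus strand) and Gsk3b (chr16:38088751-38089050, plus strand) were the members at least 2-fold higher, and their windows held none of the 3 motifs. Hes6 (chr1:91413173-91413472, minus strand) stands for the Hes and Hey factors because Hes1 and Hey1 had no window, and the capitals mark N boxes. A second window of Hes6 (chr1:91413989-91414288, minus strand), not printed, held none of the motifs. Lfng (chr5:140607091-140607390, plus strand), chosen after its values were seen, held the Rbpj core on each strand, with first bases at -135 and -108 relative to the start, and an N box at -181.
Adam17: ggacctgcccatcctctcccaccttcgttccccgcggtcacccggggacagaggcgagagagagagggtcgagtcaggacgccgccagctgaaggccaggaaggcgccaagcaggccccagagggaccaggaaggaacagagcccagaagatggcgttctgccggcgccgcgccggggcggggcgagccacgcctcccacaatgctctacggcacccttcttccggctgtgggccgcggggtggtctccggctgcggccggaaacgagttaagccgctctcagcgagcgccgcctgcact
Gsk3b: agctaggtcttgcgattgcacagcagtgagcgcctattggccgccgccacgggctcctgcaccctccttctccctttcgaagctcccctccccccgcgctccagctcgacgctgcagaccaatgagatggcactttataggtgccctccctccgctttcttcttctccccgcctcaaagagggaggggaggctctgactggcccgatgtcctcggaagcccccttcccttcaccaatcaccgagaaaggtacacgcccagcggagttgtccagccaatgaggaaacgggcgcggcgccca
Hes6: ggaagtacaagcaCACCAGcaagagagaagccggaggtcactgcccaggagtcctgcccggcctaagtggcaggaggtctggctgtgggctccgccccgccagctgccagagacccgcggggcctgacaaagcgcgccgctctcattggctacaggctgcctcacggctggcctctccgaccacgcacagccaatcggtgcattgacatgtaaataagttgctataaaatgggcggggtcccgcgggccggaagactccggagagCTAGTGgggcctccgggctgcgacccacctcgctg
Lfng: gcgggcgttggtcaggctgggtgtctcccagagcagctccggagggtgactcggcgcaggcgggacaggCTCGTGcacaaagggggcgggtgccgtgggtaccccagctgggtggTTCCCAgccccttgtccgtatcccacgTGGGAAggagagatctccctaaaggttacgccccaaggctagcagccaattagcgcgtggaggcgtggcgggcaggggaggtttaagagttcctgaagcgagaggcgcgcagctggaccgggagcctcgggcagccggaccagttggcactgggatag

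At the cell surface, the 5 Frizzled receptors on the list were all measured on both arrays. Fzd1 had a wild type signal of 33.7 and a TIF1γ Δ/Δ signal of 17.8, a log2 difference of -0.90, the lowest among members measured on both arrays. Fzd4, known from blood vessel development, gave 43.9 and 33.0 (log2 -0.39). Fzd5 lay the other way, at 21.3 and 27.0 (log2 0.37). Fzd7 (58.6 and 52.9, log2 -0.12) and Fzd8 (14.6 and 15.3, log2 0.089) differed little, and Fzd8 was close to the floor. The median of the 5 receptors was -0.12. Lrp6, the co-receptor that Wnt ligands bring together with Frizzled, gave 54.0 and 71.6 (log2 0.43), whereas its relative Lrp5 read 0.885 and 1.65, under the floor on both arrays. Porcn, the enzyme that attaches the lipid to Wnt proteins, read 11.1 and 1.002, also under both floors.

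Dishevelled proteins relay the signal from Frizzled to the destruction complex. Dvl1 had a wild type signal of 235 and a TIF1γ Δ/Δ signal of 320 (log2 0.47), and its other measured probe set was also higher, from 41.4 to 85.7 (log2 1.07). Dvl2 was level at 36.3 and 35.3 (log2 -0.017). Dvl3 read 0.833 and 1.84, under the floor on both.

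All 6 components of the destruction complex were measured on both arrays, with a median difference of 0.016. The scaffold Apc gave 104 and 95.1 (log2 -0.10), and both of its measured probe sets were lower. The scaffold Axin1 gave 113 and 127 (log2 0.19), while its second probe set went from 22.9 to 13.1 (log2 -0.78). Axin2 is an Axin paralogue that Wnt signalling itself induces, and is often used to read out the pathway. It gave 18.1 and 12.2 (log2 -0.55), both signals close to their floors. Csnk1a1, the kinase that primes beta-catenin for Gsk3, gave 2580 and 2782 (log2 0.13), with 4 of 4 measured probe sets slightly higher, though the mean of all its probe sets, those under the floor included, was -0.041.

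The Gsk3 kinases complete the phosphorylation of beta-catenin. Gsk3a gave 251 and 226 (log2 -0.12). Gsk3b had a wild type signal of 102 and a TIF1γ Δ/Δ signal of 236 at its representing probe set, which is 2.35-fold higher (log2 1.23). The 6 probe sets of Gsk3b did not share this direction. A second went from 127 to 186 (log2 0.57) and another from 22.3 to 25.6 (log2 0.23). The other 3 were lower, with 82.7 and 74.3 (log2 -0.13), 85.8 and 49.9 (log2 -0.76), and 42.3 and 20.6 (log2 -1.01). Their mean difference was 0.021, so the 2-fold difference of Gsk3b held for 1 of 6 probe sets. With quantile scaling the probe set at 127 and 186 became the brightest and the difference of the gene was 0.50.

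Beta-catenin, the transcriptional effector of the pathway and also a part of cell junctions, was higher on the TIF1γ Δ/Δ array at each of its measured probe sets. Ctnnb1 gave 2568 and 3410 (log2 0.43) at the representing probe set and 73.4 and 104 (log2 0.53) at another. Both differences were under 1.5-fold. Tcf7l1, a DNA-binding partner of beta-catenin known mainly as a repressor, gave 37.2 and 23.1 (log2 -0.66), but its other probe set went from 15.8 to 21.1 (log2 0.44). Tcf7l2 gave 47.1 and 43.4 (log2 -0.094), and its other measured probe set was higher (log2 0.38). Bcl9, a coactivator that links beta-catenin to chromatin readers, had a wild type signal of 9.89, under the floor, and was measured at 18.8 on the TIF1γ Δ/Δ array, which made it at least 1.33-fold higher.

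The Groucho-type corepressors Tle1, Tle3 and Tle4 bind TCF factors as well as Hes repressors, and all 3 were higher, with a median of 0.46. Tle3 gave 167 and 267 (log2 0.70), Tle1 gave 41.5 and 56.1 (log2 0.46) and Tle4 gave 235 and 296 (log2 0.36). Only Tle4 had its measured probe sets all in that direction (2 of 2). A probe set of Tle3 went from 33.4 to 20.1 (log2 -0.71), and the lowest value for Tle1 was -0.12. With the mean of the measured probe sets, Tle3 was at 0.10, Tle1 at 0.17 and Tle4 at 0.31, which lowered the median to 0.17. With those under the floor averaged in, Tle4 turned to -0.70.

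**Figure D2:**
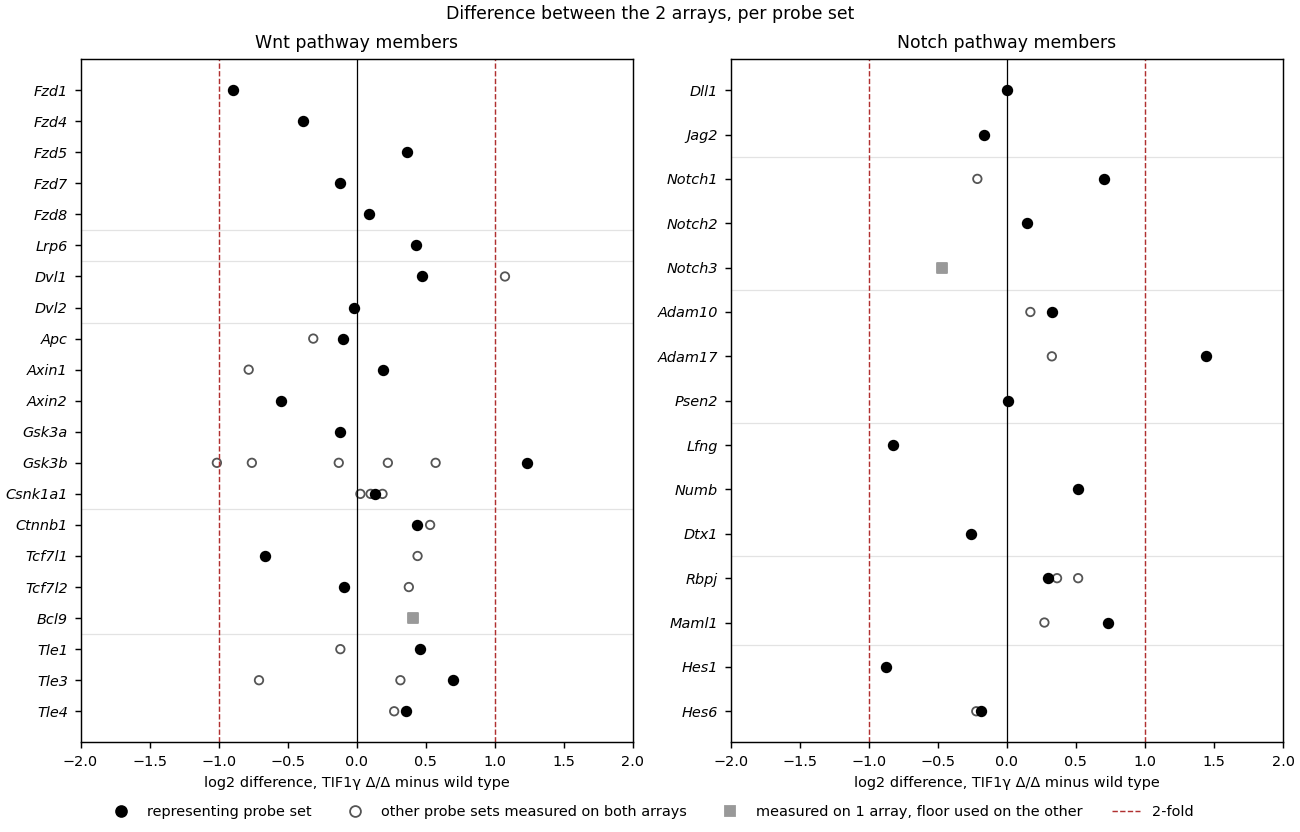
Log2 difference between the TIF1γ Δ/Δ and the wild type array for each Wnt (left) and Notch (right) member, with the representing probe set in black, other probe sets measured on both arrays as open circles, and genes measured on 1 array as grey squares drawn at their bound (Ncstn, whose value gives no direction, is left out). Dashed lines mark 2-fold, and the 6 points of Gsk3b spread from -1.01 to 1.23, while those of Rbpj, Ctnnb1 and Csnk1a1 lie close together.

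Of the Notch ligands, Delta-like 1 and Jagged 2 were measured and did not differ by much at their representing probe sets. Dll1 gave 16.6 and 16.3 (log2 0.0011) and Jag2 gave 34.3 and 30.1 (log2 -0.16), or 0.048 with quantile scaling. A second probe set of Jag2 read 20.7 in wild type and 11.6, just under the floor, in TIF1γ Δ/Δ. With the mean of the measured probe sets Jag2 was at -0.49. Dll4, a ligand of endothelial cells and thymic epithelium, read 11.1 and 6.93, and Jag1 read 12.9 and 9.08, all of them under their floors. Of the endothelial markers, Cdh5, Pecam1 and Kdr were under the floor on both arrays as well, while Eng (128 and 125), Vwf (149 and 178) and Tek (20.1 and 39.99) were measured on both and Emcn (10.8 and 28.8) for TIF1γ Δ/Δ alone.

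Notch1, the receptor needed for T cell commitment, had a wild type signal of 105 and a TIF1γ Δ/Δ signal of 167 (log2 0.70). Its second probe set was slightly lower, from 30.3 to 25.7 (log2 -0.21). Notch2 was measured well above the floor at 617 and 672 (log2 0.15). Notch3 gave 16.4 on the wild type array, near the floor, and 2.09 on the TIF1γ Δ/Δ array, which made it at least 1.39-fold lower. Notch4, an endothelial receptor, read 8.10 and 11.4, under both floors.

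The proteases that release the Notch intracellular domain held the highest member. Adam17, the metalloprotease best known for releasing tumour necrosis factor from the cell surface, had a wild type signal of 135 and a TIF1γ Δ/Δ signal of 360 at its brightest probe set, a log2 difference of 1.44 or 2.72-fold. A second measured probe set was higher by less, from 49.1 to 60.5 (log2 0.33), and the remaining one was under the floor on both arrays. The mean over the 2 measured probe sets was 0.88, so the difference of Adam17 kept its direction and not its size of 2-fold when these were averaged. Adam10, the protease generally held to cut ligand-bound Notch, gave 1649 and 2034 (log2 0.33), with 2 of 2 measured probe sets higher and a mean over all its probe sets of -0.10. Within gamma-secretase, the catalytic subunit Psen2 was level at 110 and 109 (log2 0.0083). Ncstn, the subunit that admits substrates, read 13.8 and 13.5, which is under the wild type floor and above the other, and no direction can be drawn from it.

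Modifiers of the pathway lay on both sides. Lfng, a Fringe glycosyltransferase that alters which ligands Notch responds to and whose promoter window is printed above, gave 37.6 and 20.9 (log2 -0.83). Numb, an endocytic adaptor that restrains Notch, gave 113 and 159 (log2 0.52), or -0.33 when a second probe set under the floor was averaged in. Dtx1, a Deltex ubiquitin ligase and a Notch target in lymphocytes, gave 22.1 and 18.1 (log2 -0.26), or 0.0028 with quantile scaling. Each of the 3 rested on 1 probe set measured on both arrays.

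Both proteins of the nuclear complex had higher signals at their representing probe sets, and both Hes factors measured among the members had lower ones. Of the further Hes genes described below, Hes5 was higher (log2 0.25) and Hes3 lower. The differences of Rbpj and Hes6 at their representing probe sets were smaller than the probe set scatter of 0.452. Rbpj, the DNA-binding protein of the pathway, gave 454 and 549 (log2 0.30), and 3 of 3 probe sets were higher, between 0.30 and 0.52. Maml1, the Mastermind coactivator, gave 67.0 and 110 (log2 0.74) with 2 of 2 measured probe sets higher, the other at 0.27, but the mean with a further one under the floor was -0.86. Hes1, the repressor most widely used as a Notch readout, had a wild type signal of 57.8 and a TIF1γ Δ/Δ signal of 31.0, a log2 difference of -0.87 or 1.83-fold, at its only probe set. Hes6, a relative that counteracts Hes1, gave 248 and 214 (log2 -0.19), and both of its probe sets were lower. Hey1 read 8.52 and 1.15, under the floor on both arrays.

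The direction of a difference went with signal strength. For the 34 members measured on both arrays, the geometric mean of the 2 signals was divided into 4 ranges chosen after the values were seen. Of the 8 members under 30, 3 were above 0, with a median of -0.41, beside a median of -0.23 over the 1317 genes in that range. From 30 to 100, 3 of 10 members were above 0 (median -0.098), beside 0.0056 over all genes. From 100 to 300, 9 of 11 members were above 0 (median 0.47), beside 0.17 over all genes, and above 300 all 5 members were above 0 (median 0.30), beside 0.071. From the weakest range to the strongest, the share above 0 was 37.5%, 30%, 81.8% and 100% of the members. Over all genes it was 34.3%, 50.4%, 61.6% and 55.3%. Of the members that lay lower, Fzd1, Lfng, Tcf7l1 and Axin2 were in the weakest range, where the median gene was lower too, and Hes1, with a mean signal of 42.3, was in the next range, where the median gene was level. A loess fit over all probe sets measured on both arrays removed their common trend with signal, and not one particular to the members. After it, the 5 members above 300 were still above 0, from 0.049 (Notch2) to 0.50 (Ctnnb1). Fzd1 was then at -0.71, Lfng at -0.67, Hes1 at -0.81, Tcf7l1 at -0.51, Gsk3b at 1.10 and Adam17 at 1.31.

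**Figure D3:**
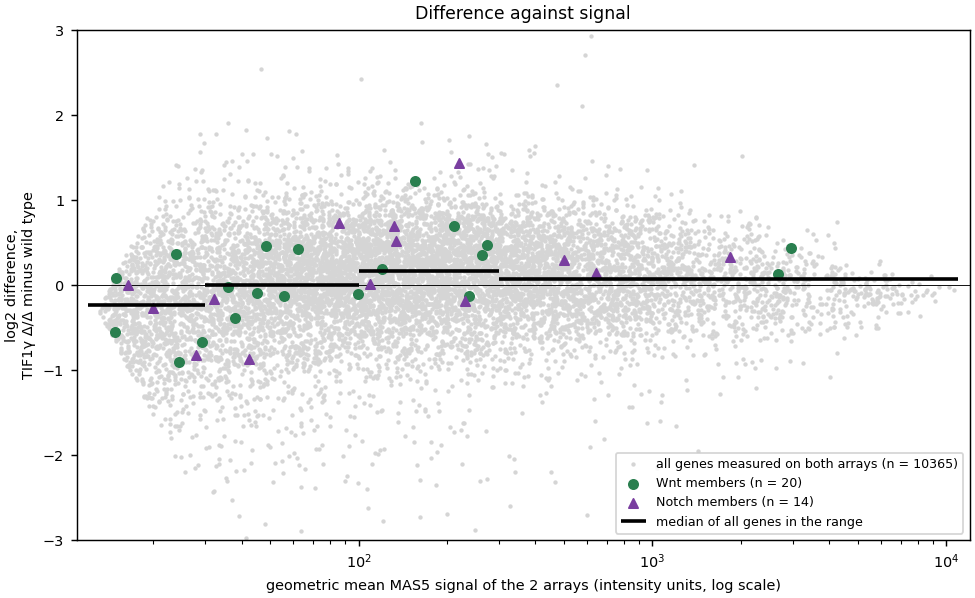
Log2 difference between the TIF1γ Δ/Δ and the wild type array (vertical) against the geometric mean signal of the 2 arrays (horizontal, log scale) for 10365 genes measured on both arrays (grey), 20 Wnt members (green circles) and 14 Notch members (purple triangles), with 24 genes outside the vertical range not drawn. Black lines are the medians of all genes in the 4 signal ranges, from -0.23 in the weakest to 0.17 between 100 and 300, and the members' points lie mostly below 0 on the left and above 0 on the right.

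The rest of the 2 pathways was described with a list of 148 further genes, of which 140 had a probe set of their own and 90 were measured on at least 1 array. Of the 90, 6 lay 2-fold or more higher in TIF1γ Δ/Δ cells, 2 lay as far lower, where the shares over all genes were 2.53% and 6.01%, and the median was 0.10. Most of the 20 further ligand and secretion genes were under the floor, and 5 were measured on both arrays. All 5, named after their values were seen, lay below 0. Wls, which carries Wnt proteins to the cell surface, gave 316 and 174 (log2 -0.83), with 3 of 3 measured probe sets lower. The ligands Wnt7a (log2 -0.93), Wnt10a (log2 -0.78), Wnt7b (log2 -0.72) and Wnt6 (log2 -0.046) had wild type signals between 21.98 and 26.7, in the weakest range. Of all genes in that range only 34.3% were above 0, and the median was -0.23. The TIF1γ Δ/Δ signal of Wnt7a, 11.9, was close to the floor of 11.7. Ryk, an atypical Wnt receptor, gave 30.7 and 12.2 (log2 -1.31), the latter also close to the floor. This was the only 1 of its 3 probe sets measured on both arrays, and with a pseudocount of 16 Ryk was at -0.71.

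Cytoplasmic regulators of the Wnt pathway lay mostly higher, 15 of 19 above 0 (78.9%) with a median of 0.42. Of all genes with a value 50.03% were above 0, and by signal range this share went from 34.3% in the weakest to 61.6% between 100 and 300. Tnks2, a tankyrase that promotes degradation of Axin, gave 438 and 1140 (log2 1.40), but its second measured probe set was at 0.40 and the mean of these was 0.90, under 2-fold. Frat2, which binds Gsk3 and keeps it from Axin, gave 120 and 298 (log2 1.34), and the membrane-bound casein kinase Csnk1g2 gave 73.8 and 151 (log2 1.06). These 3 were at least 2-fold higher at their representing probe sets, though Csnk1g2 was at 0.95 after the loess fit. Nuclear factors of the Wnt pathway had none that far apart, with Tle5 at -0.027 and Tle6 at -0.065. Lef1, a TCF factor picked with its value known, gave 18.6 and 9.82, the latter under the floor, which made it at least 1.57-fold lower.

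Genes that Wnt signalling is known to induce lay on both sides. Ccnd1, cyclin D1, gave 121 and 351 (log2 1.56, 3 of 3 probe sets). Myc gave 448 and 505 (log2 0.20) and the adhesion receptor Cd44 gave 1278 and 1302 (log2 0.051, 2 of 3 probe sets higher). Nkd1, a feedback inhibitor that binds Dishevelled, gave 23.7 and 12.1 (log2 -0.95), and Lgr5 was at least 1.496-fold lower, from 17.7 to a signal under the floor. Axin2 (log2 -0.55), described above, was lower with these. Nkd1 and Axin2 were in the weakest range, where the median gene was at -0.23, and their TIF1γ Δ/Δ signals were close to the floor. Nkd1 rested on 1 of its 4 probe sets, and the wild type signal of Lgr5 was near its floor of 14.4.

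Among further Notch genes, Pofut1, which adds the fucose that Fringe enzymes extend, gave 97.0 and 207 (log2 1.12), with 1 of 3 measured probe sets lower (log2 -0.40) and a mean over the 3 of 0.41. The histone acetyltransferase Kat2a gave 167 and 343 (log2 1.06), also with 1 of 3 lower (log2 -0.47) and a mean of 0.59. Cir1, a corepressor that binds Rbpj, gave 95.6 and 25.5 (log2 -1.88) at its only probe set. Ligand regulators and cytoplasmic modifiers held no gene 2-fold apart, with Mib2 at -0.076, Neurl1a at least 1.23-fold higher, Itch at -0.014 and Dtx4 at -0.075. Of the further Notch-responsive genes, Nrarp, a feedback inhibitor, was nearly level at 110 and 123 (log2 0.19, 2 of 2 probe sets). Hes5 gave 26.01 and 30.5 (log2 0.25), Gata3 gave 23.5 and 20.9 (log2 -0.14) and Hes3 went from 20.02 to a signal under the floor, at least 1.69-fold lower.

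**Figure D4:**
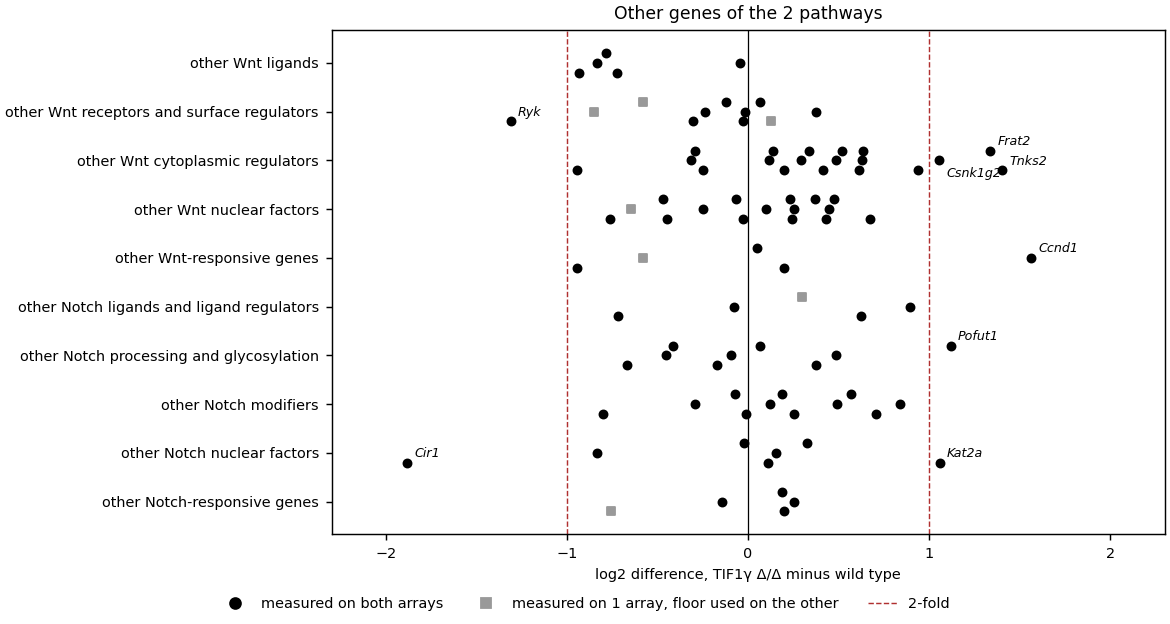
Log2 difference between the TIF1γ Δ/Δ and the wild type array for the further genes of the 2 pathways, 1 row for each step, with black circles for genes measured on both arrays and grey squares for bounds (a gene listed under 2 steps is drawn in both, and genes whose value gives no direction are left out). Names are given past the dashed 2-fold lines, with Ccnd1, Tnks2, Frat2, Pofut1, Kat2a and Csnk1g2 on the right and Cir1 and Ryk on the left.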

How the data were processed

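Total RNA of 2 KLS samples was labelled by a two-cycle protocol, per the labels' protocols, and measured on 1 array each. The submitters' processing notes name MAS5, and each deposited value was the linear intensity of a probe set. The mean after trimming 2% at each end was 100.0 on both arrays, so the deposited intensities had been scaled array by array. No source used here gives the version of MAS5.

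From these values, 64 control probe sets were left out, and 34945 of the others were annotated to 1 gene, 932 to several and 9160 to none. Symbols were updated by Entrez identifier to RefSeq GRCm38.p6, which held 34741 of the 34945. A signal under the floor on 1 array was set to the floor and the result printed as at least N-fold. No gene under the floor on both has a fold. The precision is limited by the number of arrays. The members, their order by pathway step, the further pathway genes and the marker lists were chosen with earlier results of these data known. All 44 members are named. Further genes are named where they were at least 2-fold apart, where they respond to either pathway, or, in steps with neither, as the 2 nearest to 0. Lfng and genes marked as chosen afterwards fall outside this rule. The procedure was tested on simulated data, made from the wild type array with random probe set scatter and set differences added. Those data held no change in cell types and no trend with signal, so the test does not cover either. Alternatives varied the scaling, the floor, the probe set rule, the pseudocount and the threshold. Python 3.11.15 was used with numpy 2.4.6, pandas 2.3.3, statsmodels 0.14.6, scipy 1.17.1 and matplotlib 3.10.9.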

Additional observations from a re-analysis of the deposited data

How the results depend on the processing

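No paired analysis was possible because each genotype had 1 array. Of the 37 members with a difference, 24 kept its sign under every one of 10 alternatives that gave a value, and 24 of 350 values moved by more than the probe set scatter. No value at least 2-fold apart changed sign. With the mean of all probe sets, Adam10, Axin1, Csnk1a1, Maml1, Numb and Tle4 lay below 0. Under at least 1 other scaling the small differences of Dll1, Dtx1, Dvl2, Jag2, Psen2 and Tcf7l2 changed sign, as did Ncstn, which has no direction. The count of 2 members at least 2-fold higher was 1 when all measured probe sets had to point 1 way, 1 with quantile scaling, 1 with the mean of all probe sets (Psen2, at 1.11, in place of Adam17 and Gsk3b), 0 with the mean of measured ones, 5 without a floor, 5 at a threshold of 1.5-fold and 0 at 3-fold. The count of 0 members at least 2-fold lower was 1 (Notch3) at a floor of the 40th percentile, 3 without a floor and 4 at 1.5-fold. The further pathway genes at least 2-fold higher, 6 in number, became 3 with loess scaling, 3 with the mean of all or of the measured probe sets, 18 without a floor, 15 at 1.5-fold and 0 at 3-fold. The 2 at least 2-fold lower became 4 with the floor at the 40th percentile, 1 at the 65th, 24 without a floor, 1 with a pseudocount of 16, 15 at 1.5-fold and 1 at 3-fold. Without a floor, values near 0 enter as they stand, and weak signals give large ratios. The Wnt median was 0.25 without a floor, 0.24 with quantile scaling and -0.041 with the mean of all probe sets. For the Notch members the median became 0.24 at a floor of the 65th percentile, 0.15 without probe sets whose names end in _a_at, _s_at or _x_at (where a gene had another), 0.14 with quantile and 0.12 with loess scaling. Leaving out those endings put Dtx1, Notch3 and Psen2 under both floors, Dvl1 at 1.07 and Maml1 at 0.27. When every probe set was averaged, Trim33 was at -1.77. Over all genes at least 2-fold apart, 70.4% were lower, 62.3% with quantile scaling and 57.9% without a floor. The cause of these shifts was not tested.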
